A study of Homo sapiens with 6 samples.

Results

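The 10 genes described here encode the 5 subunits of the transcription factor NF-kB (NFKB1, NFKB2, RELA, RELB and REL) and 5 proteins that hold it back or that it induces in feedback (NFKBIA, NFKBIB, NFKBIE, TNFAIP3 and BIRC3). They were named from the pathway, with earlier results of these libraries known, and the RefSeq symbol of each Entrez ID found all 10 among the 40448 genes of the deposited data. RNA was sequenced from 6 stably transfected clones of KYSE150, an established line of human oesophageal squamous cell carcinoma. The NCCRP1 clones, numbered 1, 6 and 17, carried an expression vector for human NCCRP1, a member of the F-box-only protein family. The mock clones, numbered 1, 4 and 5, carried the empty pIRES2-EGFP vector, so all 6 lines had gone through stable transfection and cloning. The question was how the transcriptome of NCCRP1 clones differs from that of vector clones. Each clone gave 1 library, and p-values therefore measure the spread between these 6 clones.

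NF-kB acts as a dimer of subunits that share a Rel homology domain. RELA, RELB and REL carry transactivation domains, while NFKB1 and NFKB2 encode the precursors p105 and p100, which are processed to the DNA-binding proteins p50 and p52. In resting cells the IkB proteins keep dimers in the cytoplasm. In the canonical pathway, IkB kinase marks these inhibitors for degradation, and RELA and p50 then switch on target genes that include the inhibitors themselves. In the non-canonical pathway, p100 is processed and RELB is released with p52. Many epithelial tumour lines keep some NF-kB activity, which drives cytokine and survival genes.

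The deposited values were log2 RPKM, that is, the base-2 logarithm of reads scaled to exon length and library depth, with nothing listed below 0. Estimated depth was 14570000 to 18070000 reads in NCCRP1 clones and 12290000 to 15960000 in mock clones, and 12477 to 12821 genes lay above 0 per library. NCCRP1 itself was at 6.19, 8.07 and 6.71 in NCCRP1 clones 1, 6 and 17 and was listed at 0 in every mock clone. All 13 squamous epithelial markers examined, such as KRT5 and TP63, were above 0 in at least 3 libraries, whereas 10 of 12 blood and immune, 8 of 9 fibroblast and 5 of 6 endothelial markers were listed at 0 throughout, among them PTPRC, CD14, COL3A1 and PECAM1. The summed RPKM of the immune list was 49.0 to 65.3 in NCCRP1 and 38.3 to 54.2 in mock clones and came wholly from CD68 and CSF1R. Its part in the results was not tested, and in bulk RNA, fewer cells with a transcript and less transcript per cell cannot be told apart. NCCRP1 clone 1 and mock clones 1 and 4 were read in the run named 15, and NCCRP1 clones 6 and 17 and mock clone 5 in the run named 14.

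The promoters of the feedback genes are shown first because NF-kB is known to bind its DNA motif, the kappa-B element, in such promoters. The RefSeq windows held 250 bases before and 50 after a start, on build GRCh38.p14, for 8 of the 10 members (RELB and NFKBIE had none). A match to the 10-base kappa-B consensus on either strand stood in 7 of these 8 genes, in 8 of their 13 windows. It stood in 8.76% of tested genes with a window and in 5.91% of all windows. The members were named from the NF-kB pathway and include known targets, so these shares describe them and are no independent evidence. RELA was the member without a match in these windows. Overlapping matches were joined into 1 stretch, and a match describes the letters, not occupancy by the factor.

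The 250 bases before the start are given, with the matches in capitals, for the 3 feedback genes with the highest mean differences among members with a window, and for NFKB1, which has a match and the mean difference nearest to 0 among the subunits. NFKBIA was taken from chr14:35404750-35404999 (minus strand), TNFAIP3 from chr6:137867009-137867258 (plus strand), BIRC3 from chr11:102317234-102317483 (plus strand) and NFKB1 from chr4:102501109-102501358 (plus strand).
NFKBIA: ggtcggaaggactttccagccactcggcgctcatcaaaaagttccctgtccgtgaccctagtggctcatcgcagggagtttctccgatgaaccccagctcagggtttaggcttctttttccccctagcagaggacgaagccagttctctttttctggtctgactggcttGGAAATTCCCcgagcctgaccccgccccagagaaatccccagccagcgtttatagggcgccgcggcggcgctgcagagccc
TNFAIP3: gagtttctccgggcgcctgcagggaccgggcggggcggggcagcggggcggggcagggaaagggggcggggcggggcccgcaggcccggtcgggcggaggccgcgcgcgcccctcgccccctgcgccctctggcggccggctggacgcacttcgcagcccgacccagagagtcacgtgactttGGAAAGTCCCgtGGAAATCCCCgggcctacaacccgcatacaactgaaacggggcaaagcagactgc
BIRC3: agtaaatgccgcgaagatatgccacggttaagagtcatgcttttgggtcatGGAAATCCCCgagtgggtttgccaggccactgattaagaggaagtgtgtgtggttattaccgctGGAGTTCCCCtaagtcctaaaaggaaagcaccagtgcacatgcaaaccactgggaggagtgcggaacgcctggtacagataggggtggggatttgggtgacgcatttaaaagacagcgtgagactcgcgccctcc
NFKB1: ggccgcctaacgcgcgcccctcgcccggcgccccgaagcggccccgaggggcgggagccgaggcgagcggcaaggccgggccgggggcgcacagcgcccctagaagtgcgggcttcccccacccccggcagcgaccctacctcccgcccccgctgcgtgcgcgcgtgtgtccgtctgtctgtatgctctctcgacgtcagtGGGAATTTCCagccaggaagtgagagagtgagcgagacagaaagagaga

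NFKBIA had 1 match, beginning 81 bases before the start. TNFAIP3 had 2, beginning 67 and 55 bases before the start, and BIRC3 had 2, at 199 and 135 bases. The NFKB1 match began 49 bases before its first start, and that of REL 47 bases before. The 3 NFKB2 windows held 0, 2 and 2 stretches, and of the 2 NFKBIB windows the second held 1, at 28 bases.

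Between the groups, the feedback genes TNFAIP3 and NFKBIA and the subunit gene RELB stood higher in each clone with NCCRP1 than in all mock clones, by 2.28, 1.73 and 1.86 times. NFKB1, RELA and REL lay within 0.20 log2 units of their mock means and overlapped. No member passed limma's test over the 12737 genes tested at an adjusted p of 0.05. The shares of all tested genes that passed higher and lower were 0.0707% and 0.0314%. At an unadjusted p under 0.05, limma had 5 members higher (RELB, NFKBIA, NFKBIE, TNFAIP3 and BIRC3) and 0 lower, against 3.54% and 3.79% of all tested genes. Groups did not overlap for 3 of the 10 members, all higher in NCCRP1 clones, against 5.71% of tested genes higher and 7.05% lower. The median difference of the members was 0.496 log2 units, against -0.016 over all tested genes. As the members were named with earlier results known, these counts describe them and are no independent evidence. All 10 members passed the filter of a value above 0 in at least 3 libraries.

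**Figure D1:**
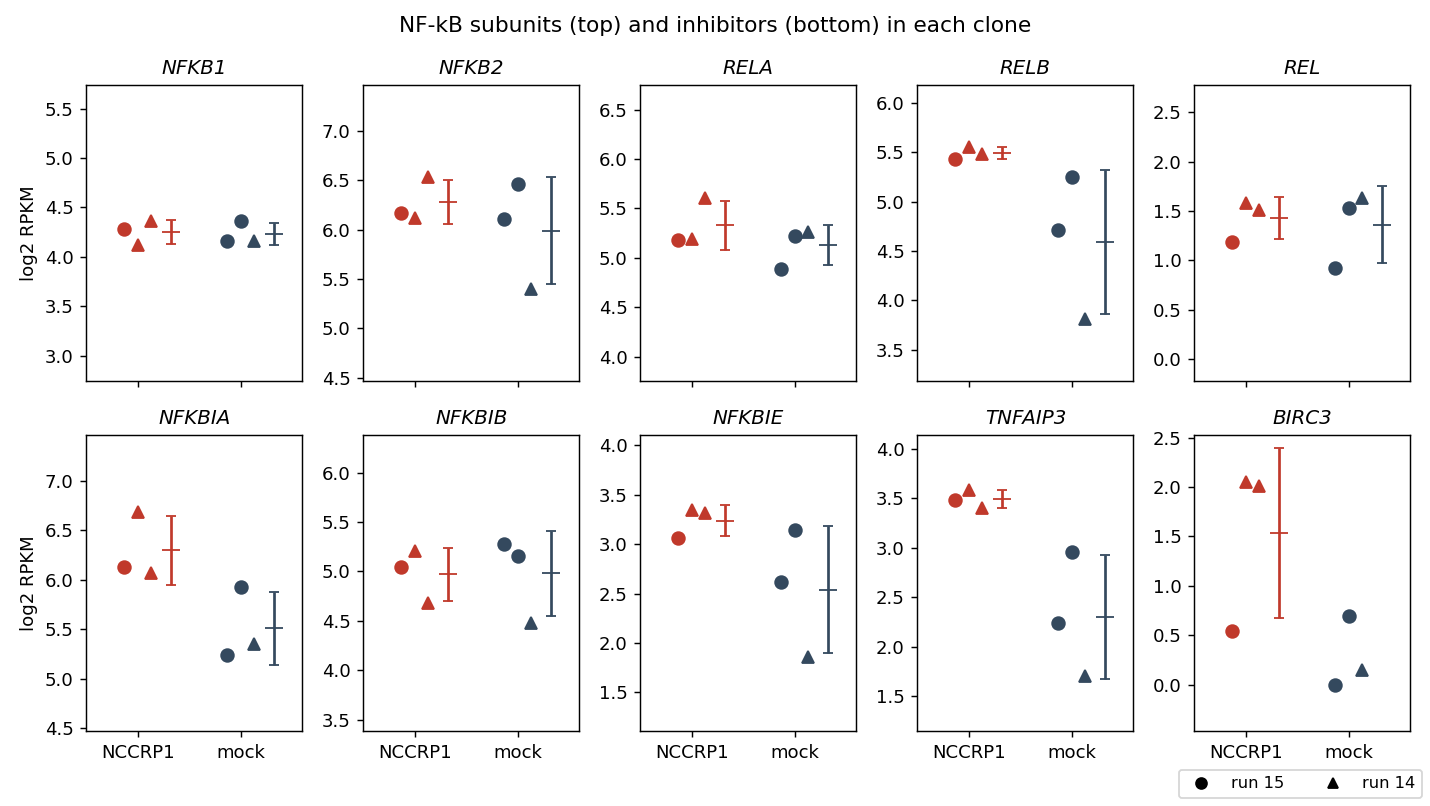
Log2 RPKM of each of the 10 genes, with NCCRP1 clones at left and mock clones at right of each panel. Circles are clones of run 15 and triangles those of run 14, and bars give the mean and SD of 3 clones, except for BIRC3 in mock clones, where 1 clone was listed at 0. All panels span 3 log2 units. TNFAIP3, NFKBIA and RELB do not overlap between the groups.

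Among the subunits, NFKB1, the gene of p105 and p50, had the difference nearest to 0. It had log2 RPKM values of 4.28, 4.12 and 4.36 in the NCCRP1 clones 1, 6 and 17, while mock clones 1, 4 and 5 had 4.16, 4.36 and 4.16. The groups overlapped completely. The difference was 0.03 (SE 0.14, limma 95% interval -0.29 to 0.34, adjusted p = 0.994), so the interval runs from 0.821 to 1.27 times the mock level.

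RELA, the main transactivating subunit of the canonical pathway, was at a log2 RPKM of 5.18, 5.19 and 5.61 in the NCCRP1 clones 1, 6 and 17, while mock clones 1, 4 and 5 had 4.89, 5.22 and 5.26. NCCRP1 clone 17 was the highest, and the other NCCRP1 clones lay within the mock range. The difference was 0.20 (SE 0.17, limma 95% interval -0.17 to 0.57, adjusted p = 0.897). It was 0.13 within run 15 and 0.14 within run 14, 0.06 without NCCRP1 clone 17 and 0.08 without mock clone 1.

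REL, which encodes c-Rel, a subunit best known from lymphoid cells, had the lowest log2 RPKM of the subunits in every library. It was at 1.19, 1.58 and 1.51 in the NCCRP1 clones 1, 6 and 17, while mock clones 1, 4 and 5 had 0.92, 1.53 and 1.63. The clones of run 15 numbered 1 were the lowest of each group. The difference was 0.07 (SE 0.25, limma 95% interval -0.47 to 0.61, adjusted p = 0.989), and it was negative within each run, at -0.04 and -0.09 in runs 15 and 14.

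NFKB2, the gene of p100 and p52, was at a log2 RPKM of 6.17, 6.12 and 6.53 in the NCCRP1 clones 1, 6 and 17, while mock clones 1, 4 and 5 had 6.11, 6.46 and 5.40. Mock clone 5 stood below all others. The difference was 0.29 (SE 0.25, limma adjusted p = 0.904), but -0.11 within run 15, 0.93 within run 14 and -0.00808 without mock clone 5. It was 0.16 without NCCRP1 clone 17 and 0.52 without mock clone 4. NFKB2 lies on chromosome 10, and in NCCRP1 clone 6 the 30 nearest expressed neighbours of the gene had a median deviation of -0.51 from their means over 6 clones, against 0.19 and 0.07 in NCCRP1 clones 1 and 17 and 0.11, 0.13 and 0.01 in mock clones 1, 4 and 5. With the neighbours' deviations subtracted, a setting chosen after seeing the data, the NFKB2 difference was 0.45 (limma adjusted p = 0.72).

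RELB, the non-canonical partner of p52 and itself an NF-kB target, was the subunit with the largest difference. Its log2 RPKM was 5.43, 5.55 and 5.48 in the NCCRP1 clones 1, 6 and 17, while mock clones 1, 4 and 5 had 4.71, 5.25 and 3.81. The NCCRP1 clones lay close together, whereas the mock clones ran over more than a log2 unit with clone 5 lowest. The means were 5.49 ± 0.06 in NCCRP1 and 4.59 ± 0.73 in mock clones (SD, n = 3 each), a difference of 0.90 (SE 0.31, limma adjusted p = 0.522). An exact two-sided permutation of the clones gave p = 0.1, the lowest that 3 against 3 clones allow. Without mock clone 5 the difference was 0.50, and it was 0.45 within run 15 and 1.71 within run 14.

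RPKM is per length, so levels of different genes can be set side by side on that scale. Over NCCRP1 clones the subunits took the following mean shares of their summed RPKM: NFKB2 42.0%, RELB 24.4%, RELA 21.8%, NFKB1 10.4% and REL 1.5%. In mock clones the shares were 43.8% for NFKB2, 16.9% for RELB, 24.6% for RELA, 12.9% for NFKB1 and 1.8% for REL. NFKB2 was thus the highest subunit by RPKM in all 6 libraries, and REL the lowest.

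The share of RELA was 21.0%, 21.0% and 23.3% in the NCCRP1 clones 1, 6 and 17, while mock clones 1, 4 and 5 had 20.6%, 20.0% and 33.2%. Mock clone 5 alone stood apart, and the mean difference of -2.8 percentage points (exact permutation p = 1) was 1.5 without that clone. Within run 14, where it is the only mock clone, the RELA share differed by -11.0 percentage points, and within run 15 by 0.7. The share of RELB was 24.9%, 27.0% and 21.3% in the NCCRP1 clones 1, 6 and 17, while mock clones 1, 4 and 5 had 18.1%, 20.4% and 12.1%. The RELB shares did not overlap (exact permutation p = 0.1, the smallest possible); this share was examined after its values were seen.

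Of the IkB inhibitors, NFKBIA encodes IkB-alpha, which is resynthesised after each NF-kB pulse and brings dimers back out of the nucleus. NFKBIA was at a log2 RPKM of 6.13, 6.69 and 6.07 in the NCCRP1 clones 1, 6 and 17, while mock clones 1, 4 and 5 had 5.24, 5.93 and 5.35. Clone 6 was the highest NCCRP1 clone, and clone 4, the highest mock clone, lay just below the lowest NCCRP1 clone. The means were 6.30 ± 0.35 in NCCRP1 and 5.51 ± 0.37 in mock clones (SD, n = 3 each), which is 1.73 times the mock level with a limma 95% interval of 1.24 to 2.41 times. The log2 difference of 0.79 (SE 0.22) had a limma adjusted p of 0.341, which ranged from 0.131 to 0.805 over the other settings. It was 0.54 within run 15 and 1.03 within run 14.

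NFKBIB encodes IkB-beta, an inhibitor that is less tied to NF-kB induction than IkB-alpha. It was at a log2 RPKM of 5.04, 5.21 and 4.68 in the NCCRP1 clones 1, 6 and 17, while mock clones 1, 4 and 5 had 5.28, 5.16 and 4.48. The lowest value of each group came from run 14, in NCCRP1 clone 17 and mock clone 5. The difference was -0.00153 (SE 0.22, limma 95% interval -0.48 to 0.48, adjusted p = 0.999), so the interval runs from 0.716 to 1.39 times the mock level.

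NFKBIE encodes IkB-epsilon, another inducible inhibitor. It was at a log2 RPKM of 3.06, 3.35 and 3.32 in the NCCRP1 clones 1, 6 and 17, while mock clones 1, 4 and 5 had 2.62, 3.14 and 1.86. Mock clone 4 lay above NCCRP1 clone 1, so the groups overlapped. The difference was 0.71 (SE 0.28, limma adjusted p = 0.587), at 0.37 without mock clone 5, 0.18 within run 15 and 1.47 within run 14.

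IkB-alpha transcripts took a larger share of the IkB total in NCCRP1 clones. NFKBIA made up 62.8%, 68.7% and 65.3% of the summed RPKM of NFKBIA, NFKBIB and NFKBIE in the NCCRP1 clones 1, 6 and 17, while mock clones 1, 4 and 5 had 45.7%, 57.7% and 61.1%. NFKBIB made up 29.7%, 24.5% and 24.9% in the NCCRP1 clones 1, 6 and 17, while mock clones 1, 4 and 5 had 46.9%, 33.9% and 33.5%. Neither share overlapped between the groups. The exact permutation test gave p = 0.1 for each, the smallest possible, and these shares were examined after their values were seen. NFKBIE held only 5.4% (mock clone 5) to 9.7% (NCCRP1 clone 17) of the sum. A higher NFKBIA share thus nearly fixes a lower NFKBIB share, and they are not separate results. The log2 RPKM of NFKBIB itself differed by -0.00153. The summed RPKM of the 3 genes averaged 121 ± 25.6 in NCCRP1 and 85.1 ± 19.5 in mock clones (SD, n = 3 each; exact permutation p = 0.2).

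**Figure D2:**
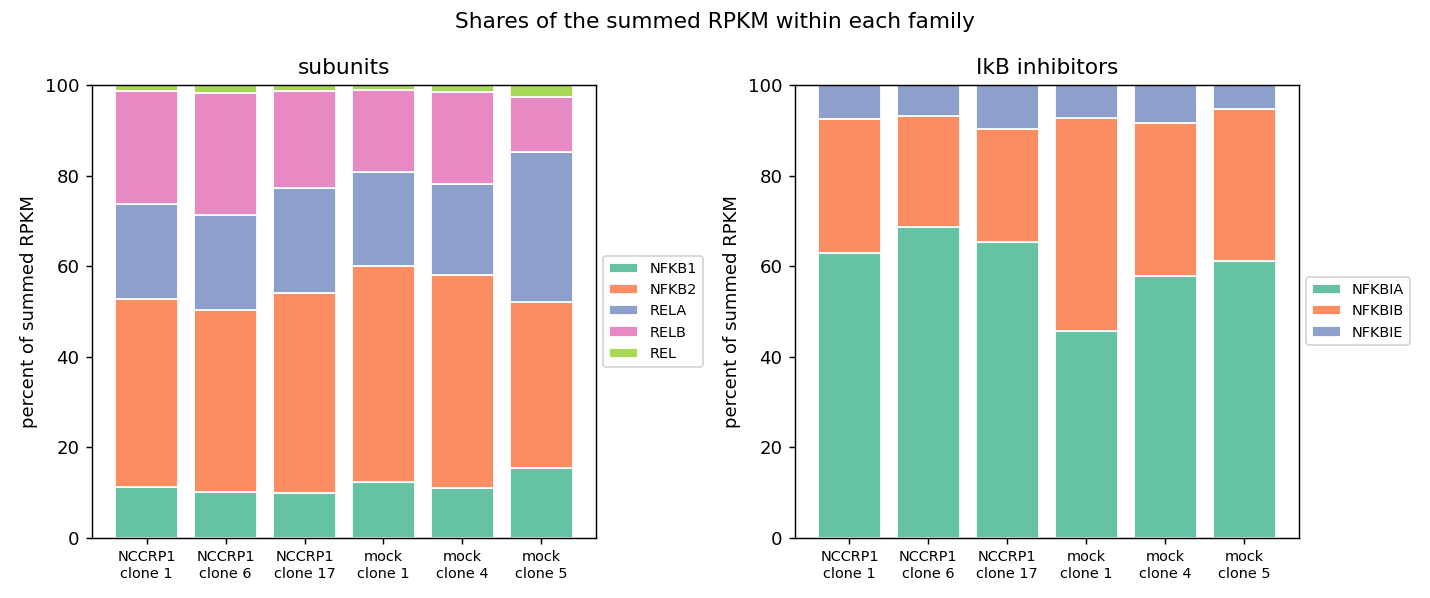
Stacked bars give the percent of summed RPKM taken by each subunit gene (left) and each IkB gene (right), with NCCRP1 clones left of mock clones. The NFKBIA share lies between 62.8% and 68.7% in NCCRP1 clones and between 45.7% and 61.1% in mock clones, and mock clone 5 has the highest RELA share.

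TNFAIP3 encodes A20, a ubiquitin-editing enzyme that shuts off signalling upstream of IkB kinase. It had the lowest unadjusted p of the 10 genes, ranking 74 among the 12737 tested. Its log2 RPKM was 3.48, 3.58 and 3.40 in the NCCRP1 clones 1, 6 and 17, while mock clones 1, 4 and 5 had 2.24, 2.96 and 1.70. The NCCRP1 clones lay close together, while the mock clones ran from clone 5, the lowest, to clone 4. The means were 3.49 ± 0.09 in NCCRP1 and 2.30 ± 0.63 in mock clones (SD, n = 3 each), or 2.28 times the mock level (limma 95% interval 1.5 to 3.45 times). The difference of 1.19 (SE 0.27, unadjusted p = 0.00122) missed the threshold at a limma adjusted p of 0.209, and the exact permutation test gave its minimum of p = 0.1.

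Without mock clone 4, TNFAIP3 passed limma's test at a difference of 1.52 (adjusted p = 0.0219). Its limma adjusted p ran from 0.0219 to 0.551 over the other settings. The difference was 0.88 within run 15 and 1.79 within run 14. WAKMAR2, a long noncoding RNA whose gene overlaps that of TNFAIP3 in RefSeq, had listed values of 0.31, 0.40 and 0 (log2 RPKM) in the NCCRP1 clones 1, 6 and 17 and of 0 in every mock clone. Whether the authors counted by strand is not given in the sources used here, so reads of the overlap cannot be told apart.

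BIRC3 encodes cIAP2, a ubiquitin ligase that is induced by NF-kB and takes part in tumour necrosis factor receptor signalling. Its log2 RPKM was 0.54, 2.05 and 2.01 in the NCCRP1 clones 1, 6 and 17. In mock clones 4 and 5 it was at 0.69 and 0.15, and in mock clone 1 it was listed at 0. NCCRP1 clones 6 and 17, both of run 14, stood apart from the other 4 libraries, and NCCRP1 clone 1 lay below mock clone 4. The listed values differed by 1.25 (SE 0.39, limma adjusted p = 0.415), by 0.19 within run 15 and by 1.88 within run 14. On log2(RPKM + 0.1), which sets a listed 0 further from low values, the difference was 2.34 (limma adjusted p = 0.682). Without NCCRP1 clone 1 the gene passed (difference 1.75, limma adjusted p = 0.0463), and its adjusted p ran from 0.0463 to 0.891 over the other settings. At the estimated depths, and with an exonic length of 6911 bases in GENCODE release 29, 1 RPKM of BIRC3 stood for about 85 to 125 reads, so the listed 0 allows up to about 85 reads in mock clone 1. Its neighbour and paralogue BIRC2, which encodes cIAP1, was at 2.46, 2.86 and 2.74 in the NCCRP1 clones 1, 6 and 17, while mock clones 1, 4 and 5 had 2.26, 2.40 and 2.94.

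**Figure D3:**
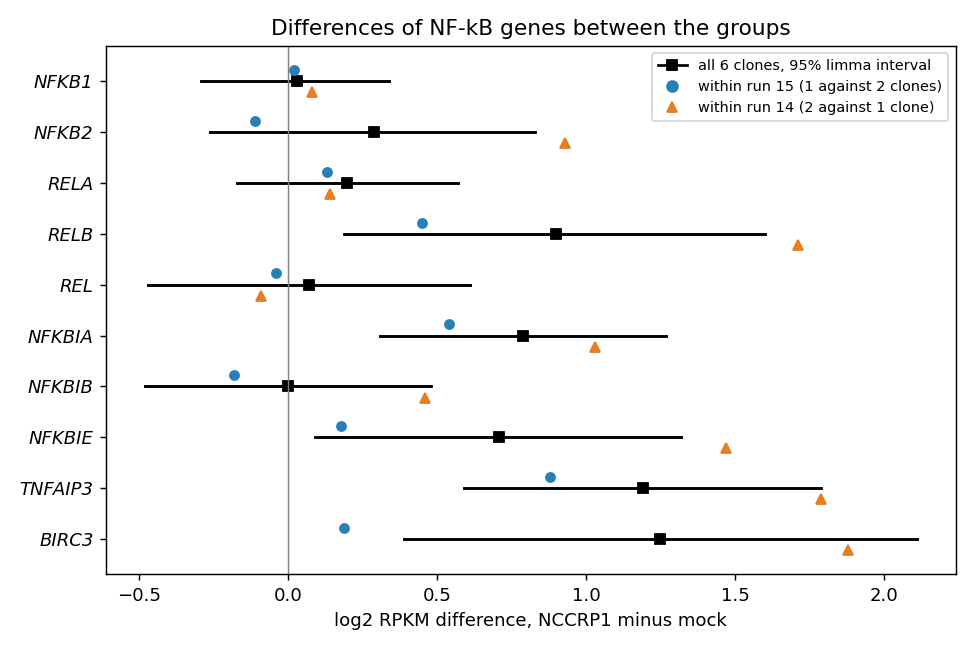
Squares give the difference of mean log2 RPKM, NCCRP1 minus mock, with limma's 95% interval, circles the difference within run 15 (1 NCCRP1 against 2 mock clones) and triangles that within run 14 (2 NCCRP1 against 1 mock clone). For RELB, NFKBIE, TNFAIP3 and BIRC3 the triangle lies at 1.47 to 1.88 and the circle at 0.18 to 0.88.

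The 2 runs gave unequal differences for several members. With a run-by-group interaction in limma, the difference within run 14 exceeded that within run 15 by 1.03 for NFKB2, 1.26 for RELB, 1.29 for NFKBIE and 1.69 for BIRC3. Unadjusted p was 0.0179, 0.00721, 0.00828 and 0.013 for these genes, as it was under 0.05 for 10.4% of all tested genes. None of the 10 members passed after adjustment, against 0.0236% of all tested genes (limma adjusted p of 0.395, 0.375, 0.375 and 0.393 for these 4). Run 14 held a single mock clone, clone 5, and run 15 a single NCCRP1 clone, clone 1. Neither of these clones can be told apart from its run here. For BIRC3, NCCRP1 clone 1 was at 0.54 against 2.05 and 2.01 in NCCRP1 clones 6 and 17, and mock clone 5 lay within the mock range. Mock clone 5 had the lowest value of all 6 libraries for 5 of the 10 members and mock clone 1 for 4, against 18.8% and 20.9% of all tested genes. Mock clone 5 also had the highest value for 29.2% of all tested genes, the largest share of the 6 libraries, and for 1 of the 10 members.

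The spread of the clones was read against that of all genes. The SD was larger among NCCRP1 clones for 3 of the 10 members and among mock clones for 7, while it was larger among NCCRP1 clones for 47.0% of tested genes. The median SD over tested genes was 0.192 log2 units in NCCRP1 and 0.21 in mock clones, while RELB had an SD of 0.06 in NCCRP1 and 0.73 in mock clones. That of TNFAIP3 was 0.09 in NCCRP1 and 0.63 in mock clones, and that of NFKBIE 0.16 in NCCRP1 and 0.64 in mock clones. BIRC3 went the other way, at an SD of 0.86 in NCCRP1 clones.

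By a rule applied to all protein-coding genes above 0 in every library and averaging at least 2 log2 RPKM (8859 compared), the genes most like TNFAIP3 over the 6 libraries were SQOR, COL4A2 and ZC3H12A, at Pearson r of 0.994, 0.992 and 0.991. Those most like NFKBIA were INPP4A, SLC41A1 and OLR1, at r of 0.991, 0.986 and 0.985. With 6 points that fall into 2 groups and 8859 genes compared, such values describe these libraries only. ZC3H12A, which encodes the ribonuclease Regnase-1, a brake on cytokine mRNAs, was at 5.39, 5.39 and 5.45 in the NCCRP1 clones 1, 6 and 17, while mock clones 1, 4 and 5 had 4.46, 5.10 and 4.18. INPP4A followed NFKBIA over a far smaller range, from 4.22 to 4.33 in NCCRP1 and from 4.07 to 4.20 in mock clones.

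The rest of the pathway was read from lists chosen by role. No gene of the receptor, adaptor, kinase or negative regulator lists passed limma's test over all genes, and 7, 10, 10 and 7 of their 14, 16, 16 and 13 tested members had a higher mean in NCCRP1 clones, against 46.7% of all tested genes. Their median differences were 0.017, 0.043, 0.154 and 0.082 log2 units. At an unadjusted limma p under 0.05, these lists held 0, 1, 3 and 1 genes higher and 0, 0, 0 and 1 lower. Over all tested genes the shares were 3.54% higher and 3.79% lower.

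Among the receptors, 4 of 20 genes were listed at 0 throughout, including TLR2 and TLR4. The receptors with the lowest p were FAS, IL1RAP, EDA2R and TNFRSF10B, at limma adjusted p of 0.774 to 0.868. The kinase list also held kinase partners such as TAB3. In it IKBKE, an IkB kinase relative induced by NF-kB, was at 4.23 ± 0.20 in NCCRP1 and 3.69 ± 0.41 in mock clones (SD, n = 3 each, limma adjusted p = 0.566). MAP3K8, IRAK2 and TAB3 followed at differences of 0.65, 0.51 and 0.37 (limma adjusted p of 0.635, 0.664 and 0.791). Within run 15 the MAP3K8 difference was -0.02, and within run 14 it was 1.29.

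TRAF1, an adaptor that is itself an NF-kB target, had the lowest p of its list, at a log2 RPKM of 2.89, 3.67 and 3.40 in the NCCRP1 clones 1, 6 and 17, while mock clones 1, 4 and 5 had 1.95, 2.92 and 1.79 (difference 1.10, limma adjusted p = 0.349). As with NFKBIE, mock clone 4 lay above NCCRP1 clone 1. TRAF5, SHARPIN and TRAF3, the other adaptors named, had differences of -0.58, -0.31 and 0.29 (limma adjusted p of 0.701, 0.744 and 0.799). Of the negative regulators, ZC3H12A and TNIP1, which encodes a partner of A20, had differences of 0.83 and 0.43 (limma adjusted p of 0.268 and 0.736). TANK and N4BP1 were at 0.48 and -0.35 (0.753 and 0.674). TNIP1 was at 0.16 without mock clone 5, and TANK at -0.03 within run 14. A further list held the atypical IkB and Bcl3 family and, besides that family, NKRF. In it NFKBIZ, the gene of the inducible nuclear IkB-zeta, was at 3.75 ± 0.40 in NCCRP1 and 3.13 ± 0.23 in mock clones (SD, n = 3 each, limma adjusted p = 0.486). NFKBID, BCL3 and NKRF had differences of 0.45, 0.10 and 0.04 (limma adjusted p of 0.782, 0.988 and 0.992). NFKBID was at -0.14 and BCL3 at -0.43 within run 15, and at 0.97 and 0.58 within run 14, while NKRF was at -0.22 within run 14.

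The target lists stood higher. All 12 tested ligands and cytokine targets and 21 of 22 tested intracellular and surface targets averaged higher in NCCRP1 than in mock clones, at median differences of 1.01 and 0.605. Over all tested genes, 46.7% averaged higher, at a median difference of -0.016. Groups did not overlap, higher in NCCRP1, for 4 and 11 of the targets, against 5.71% of all tested genes. CXCL1, a cytokine listed at 0 in every mock clone, could pass the filter on low values only as higher, and without it 11 of 11 cytokines averaged higher and 3 did not overlap. Another 5 cytokines were above 0 in too few libraries to be tested, and 7 were listed at 0 throughout. Of the mock clones, only clone 4 was above 0 for the cytokine CXCL8 and for SAA2, one of the other targets. These genes met the filter through their NCCRP1 values. Both stay in the counts and medians of their lists, also in the counts at an unadjusted limma p under 0.05. SAA2 is also among the 11 without overlap, and no count was made without CXCL8 and SAA2. These lists were chosen with results of these libraries known and are no independent evidence of a direction. Of the cytokines, CXCL2, a neutrophil chemokine, IL6, IL1B and TNFSF15 had the lowest p, with 0 passing (limma adjusted p of 0.0599, 0.071, 0.203 and 0.381) and 9 at an unadjusted p under 0.05, or 8 without CXCL1. All 9 were higher in NCCRP1 clones, and 3.54% of all tested genes were higher at that unadjusted limma p.

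Among the other targets, 15 of 22, SAA2 included, were higher at an unadjusted limma p under 0.05, against 3.54% of all tested genes. After adjustment 1 passed, against 0.0707% of all tested genes higher. This was GADD45B, which takes part in stress responses and survival. It was at a log2 RPKM of 5.71, 5.99 and 5.98 in the NCCRP1 clones 1, 6 and 17, while mock clones 1, 4 and 5 had 4.47, 4.57 and 3.85 (limma adjusted p = 0.0154). The difference was 1.59 (SE 0.19), at 1.18 within run 15 and 2.13 within run 14, and 1.11 with the deviations of neighbouring genes subtracted (limma adjusted p = 0.0385). It missed the threshold with the run as a term, with no filter and on log2(RPKM + 0.1) (limma adjusted p of 0.0595, 0.0597 and 0.0545), and without mock clone 5, NCCRP1 clone 6 or NCCRP1 clone 17 (0.0549, 0.0701 and 0.105), over a range of 0.00829 to 0.105 in all settings tried. SOD2, mitochondrial superoxide dismutase, was at 5.88 ± 0.49 in NCCRP1 and 4.59 ± 0.35 in mock clones (SD, n = 3 each; limma adjusted p = 0.115). IER3 was at 5.84 ± 0.08 in NCCRP1 and 5.22 ± 0.07 in mock clones (SD, n = 3 each; limma adjusted p = 0.142). SAA2, an acute-phase gene whose reads can be shared with SAA1, was at 1.21, 2.77 and 1.85 in NCCRP1 clones 1, 6 and 17, against a listed 0 in mock clones 1 and 5 and 0.40 in mock clone 4 (limma adjusted p = 0.109).

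**Figure D4:**
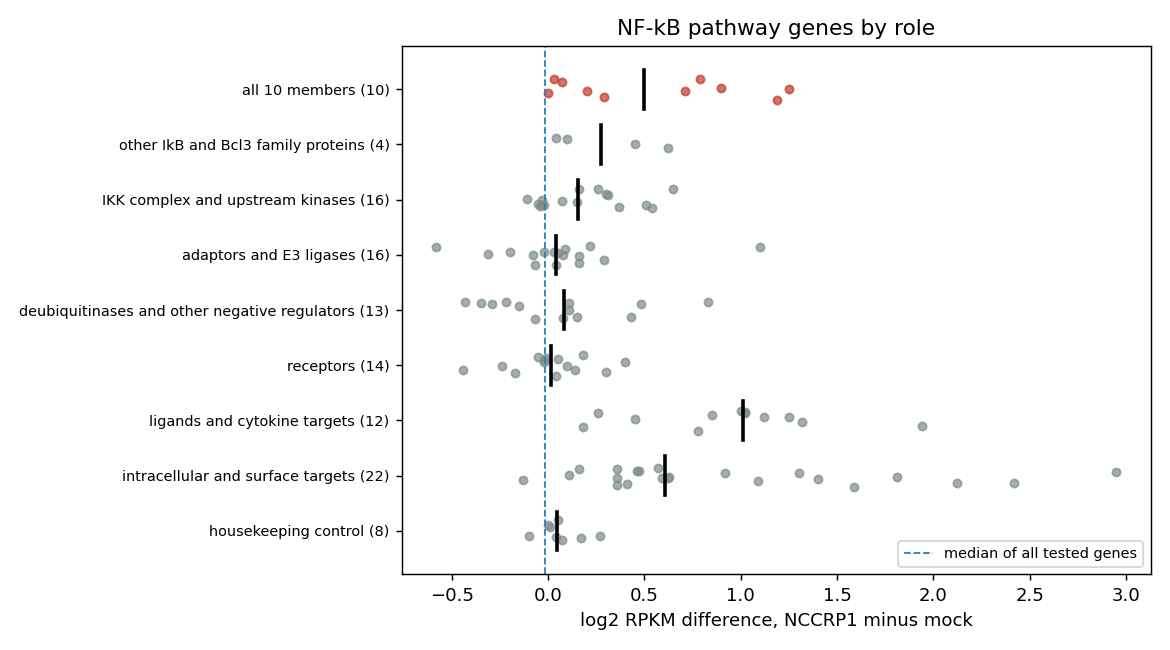
Each point is the difference in mean log2 RPKM, NCCRP1 minus mock, of 1 tested gene, by role, with the list's median as a black bar and the number of tested genes in brackets. The medians of the 2 target lists (1.01 and 0.605) and of the members (0.496) stand right of the dashed median of all tested genes (-0.016), and those of receptors and adaptors (0.017 and 0.043) stand close to it.

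The control genes GAPDH and ACTB were at 10.98 ± 0.14 and 8.86 ± 0.10 in NCCRP1 clones and 10.93 ± 0.04 and 8.69 ± 0.18 in mock clones (SD, n = 3 each, limma adjusted p of 0.992 and 0.946). Of all 8 control genes, 7 averaged higher in NCCRP1 clones, against 46.7% of all tested genes, at a median difference of 0.048. Groups did not overlap, higher in NCCRP1, for 1 of the 8, against 5.71% of all tested genes. Read over clones, the mock clone nearest to the NCCRP1 clones was clone 4 for RELB, NFKBIA, NFKBIE, TNFAIP3 and BIRC3 alike. These are the 5 members higher at an unadjusted limma p under 0.05. The same share over all genes was not computed, so nothing is read from this pattern. Mock clone 4 held the lowest value for 8.61% and the highest for 10.9% of all tested genes, the smallest shares of the 6 libraries. Those shares count extremes and do not show which mock clone was nearest. The reads behind each member value, estimated from depth and exonic length, ran from about 123 for BIRC3 in mock clone 5 to about 4970 for NFKB2 in NCCRP1 clone 17, leaving out the listed 0.

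**Figure D5:**
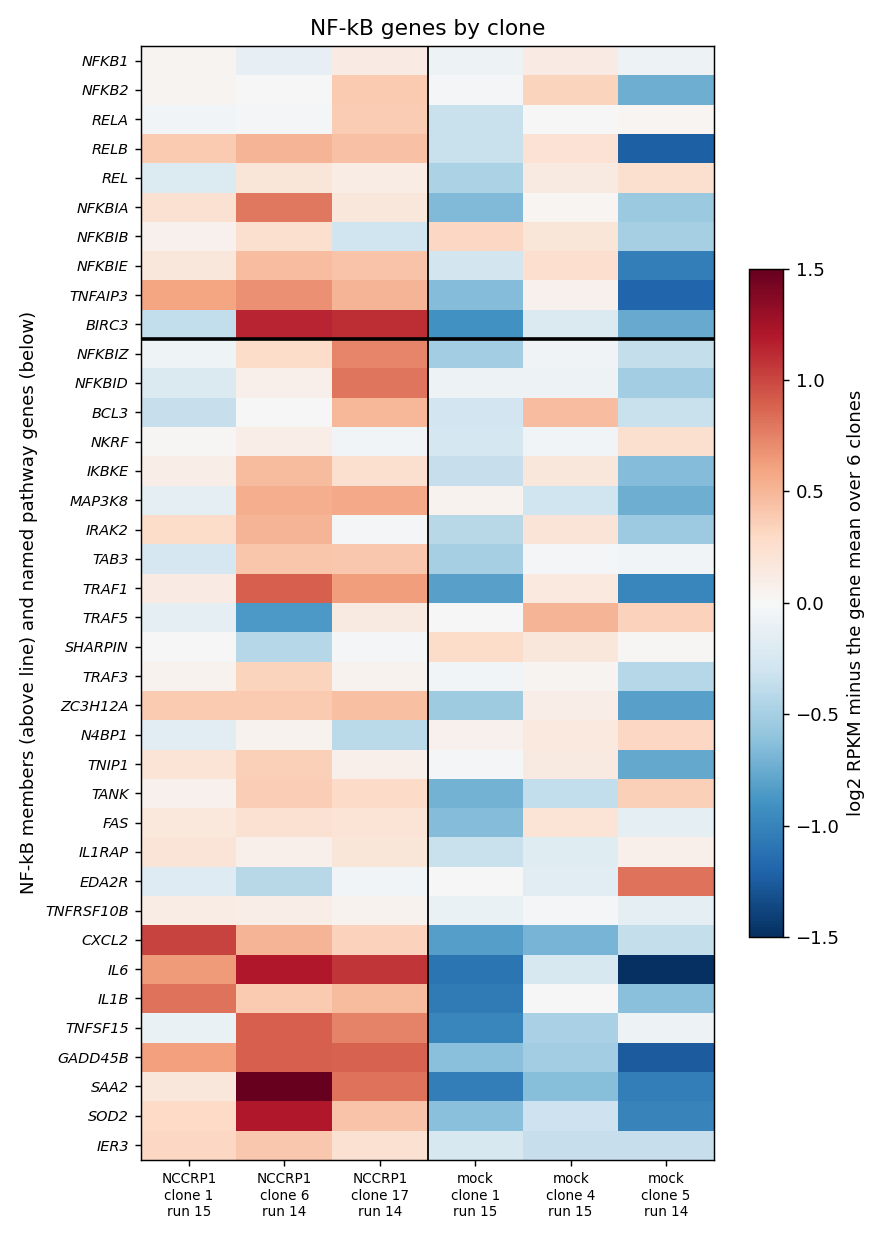
Colour gives log2 RPKM minus the gene's mean over 6 clones, for the members (above the black line) and the named pathway genes (below), with NCCRP1 clones at left and mock clones at right. Mock clones 1 and 5 are low for TNFAIP3, NFKBIA, RELB and IL6, mock clone 4 lies between them and the NCCRP1 clones, and NFKB1 stays near 0 throughout.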

How the data were processed

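RNA was sequenced from 6 KYSE150 clones, 3 per group. The deposited values are log2 RPKM with anything below 0 listed as 0; the authors' file headers say RPKM, and the log2 scale was read from the values. The submitters' processing notes name bedtools 2.25.0 and build hg19; aligner, annotation and strand of counting are not given in the sources used here. Entrez IDs were named from RefSeq (37997 of 40448). Depth was estimated from the steps between low microRNA values, searched from 10000000 to 20000000 reads; multiples outside that range were not examined, and 23.4% to 33.3% of the low values were whole reads within 0.005, too few to recover counts.

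Genes above 0 in at least 3 libraries (12737) were fitted with limma 3.58.1 in R 4.3.3 (trended, robust, group as the only term), with Benjamini-Hochberg adjustment over all of them and a threshold of 0.05. Fold changes of genes with a listed 0 were not computed. The fit was tried on simulated data with independent noise and no effect of run or clone, so that trial does not cover such effects. Single values were compared by exact two-sided permutation of 3 against 3 clones, which cannot go below p = 0.1. Promoter windows are from RefSeq, GRCh38.p14. Library pairs correlated at r = 0.990 to 0.996 over all 40448 genes, of which only 12477 to 12821 lay above 0 per library. The correlation over genes above 0 alone was not computed. No pair held equal values above 0 for any gene. Estimated read numbers cover counting error only.

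Members and gene lists were chosen with earlier results of these data known. The text names the 10 members, NCCRP1, GAPDH and ACTB. It also names the 4 genes with the lowest p of each list and the 3 most like TNFAIP3 and NFKBIA. Markers, adjoining genes, CXCL1, CXCL8 and receptors listed at 0 were named after their values were seen.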

Additional observations from a re-analysis of the deposited data

Results flagged for a closer look

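NFKBIB, the gene of IkB-beta, had differences of opposite sign in the 2 sequencing runs. NCCRP1 clone 1 lay below both mock clones of run 15, for a difference of -0.18, and NCCRP1 clones 6 and 17 lay above mock clone 5 in run 14, for a difference of 0.46. The differences within the runs differed by 0.64 log2 units (SE 0.33, adjusted p = 0.524 in limma's run-by-group interaction), which missed the threshold. Run 14 held 1 mock clone and run 15 held 1 NCCRP1 clone, and clone and run cannot be told apart.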

How the results depend on the processing

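No paired analysis was made, because the labels give no pairing of NCCRP1 clones with mock clones. The 13 genes that passed became 2 with the run as a term, 3 with no filter, 4 on log2(RPKM + 1), 1 on log2(RPKM + 0.1), 5 without robust moderation, 2 with listed 0 as missing and 8 with neighbours subtracted, and 0 to 29 with a clone left out: 0 without mock clone 5 (1363 genes at an unadjusted p under 0.05 in limma) and 29 without NCCRP1 clone 1. Of the members, 0 to 1 passed with a clone left out and 0 in every other fit. Members without overlap numbered 3 to 6 with a clone left out: 6 without mock clone 4, where 19.5% of tested genes did not overlap in either direction, and 5 without NCCRP1 clone 1 (23.2%). They numbered 4 within run 15 (3 higher, 1 lower) and 8 within run 14 (7 higher, 1 lower), against 74.8% and 72.7% of tested genes, and nothing is read from them. The median member difference ran from 0.318 to 0.76 with a clone left out and was 0.154 within run 15 and 0.977 within run 14. It was 0.286 among genes averaging at least 1 log2 RPKM, which leaves BIRC3 out. TNFAIP3 ran from 0.88 to 1.52 and was 1.79 within run 14; NFKBIA ran from 0.59 to 1.0. The RELA share difference ran from -5.1 to 1.5 percentage points with a clone left out and was 0.7 within run 15 and -11.0 within run 14.

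Some differences short of the threshold changed sign. REL was -0.06 with the run as a term, -0.04 within run 15 and -0.09 within run 14. NFKBIB was 0.14 with the run as a term, 0.0128 after median centring, 0.00391 after quantile normalization and 0.46 within run 14. NFKB1 was -0.0151 and N4BP1 0.0476 with neighbours subtracted, NFKB2 was -0.11 within run 15, NKRF -0.0272 with the run as a term and GAPDH -0.06 after quantile normalization. Within run 15 NFKBID was -0.14, BCL3 -0.43, MAP3K8 -0.02, TAB3 -0.0 and ACTB -0.03, and within run 14 NKRF was -0.22 and TANK -0.03. With a clone left out, NFKB1 ran from -0.0261 to 0.09, NFKB2 from -0.00808 to 0.52, REL from -0.15 to 0.2, NFKBIB from -0.25 to 0.15, BCL3 from -0.12 to 0.36, NKRF from -0.08 to 0.17 and GAPDH from -0.0159 to 0.12; NFKBIE ran from 0.37 to 1.0, TNIP1 from 0.16 to 0.61, NFKBID from 0.16 to 0.66 and TANK from 0.25 to 0.79. Without a mock clone NCCRP1 had limma adjusted p of 0.0507 to 0.0626 at a difference of 6.99. Some genes short of the threshold passed in 1 fit each: ZC3H12A and IL6 without mock clone 4 (limma adjusted p of 0.0418 and 0.00173), SAA2 without NCCRP1 clone 1 (0.0307) and CXCL2 among genes averaging at least 1 log2 RPKM (0.0491). The causes were not tested. Within a run no fit was made, so no genes were counted as passing there.

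Values under 1 RPKM are listed as 0, which for BIRC3 in mock clone 1 hides up to about 85 reads. Differences of genes with a listed 0 move with the scale: on log2(RPKM + 0.1) BIRC3 was 2.34, SAA2 4.03, TRAF5 -1.7 and EDA2R -1.56.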
